A study of Mus musculus with 2 samples.

Results

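Small intestinal crypts keep dividing because of stem cells at their base. These cells carry Lgr5, a receptor that enhances Wnt signalling, and answer Wnt signals through the transcription factor Ascl2. They give rise to absorptive cells and to the secretory goblet, Paneth, tuft and enteroendocrine cells. Most of them cycle, and transcripts of Mki67, Top2a and Ube2c appear mainly from late S phase to mitosis, so a stem cell without them may be in G1, in early S phase or out of the cycle. A barcode with few counts can also miss transcripts that its cell held, so a missing count does not fix a cell cycle state. The cells described here are the 250 barcodes with the highest stem score among those without a count of Mki67 (a proliferation marker), Top2a (a topoisomerase that untangles chromosomes) or Ube2c (a ubiquitin carrier of mitotic exit), out of 3409 barcodes in all. To be eligible, a barcode needed at least 500 detected genes, at most 25% mitochondrial counts and at least 3000 counts, which 2145 barcodes met. Of these, 619 held none of the 3 mitotic transcripts. The score was the mean of log1p(counts per 10000) of Lgr5, Olfm4, Ascl2, Smoc2, Gkn3 and Rgmb.

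The barcodes come from 1 sequenced pool of mouse distal small intestinal organoids, which are epithelial cultures grown from crypts, sorted and marked with hashtags, oligonucleotide labels that tell the cultures apart. The pool joined 2 control with 3 Etv1 mutant cultures, described in the labels as biological replicates. All cultures carried the genotype label Neurog3-RFP;Gcg-Venus, a pair of fluorescent reporters for enteroendocrine progenitors and for proglucagon-expressing cells. Etv1 is a transcription factor of the ETS family. The kind of mutation, the sort gate, and the age and sex of the source animals are not given in the sources used here. The gate can set which cells are present.

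The score chose the members, so the following values describe the choice and test nothing. Scores ran from 1.98 down to 0.4146 with a median of 1.226, against a median of 0.233 over the 619 eligible barcodes without mitotic transcripts. The last 3 members scored 0.417, 0.4167 and 0.4146, and the first 3 barcodes outside scored 0.4124, 0.4087 and 0.4002, so no gap marks the boundary. At least 4 of the 6 score genes were detected in 195 members and at least 3 in 237. Of the 1361 eligible barcodes that scored as high as the lowest member, 1111 (81.6%) held a mitotic transcript and were left out, compared with 71.1% of all eligible barcodes. Members held 3129 to 39109 counts (median 16126), with a median mitochondrial share of 3.95%.

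Members were set beside other groups of barcodes from the same pool. The mitotic comparison was the 250 highest scoring eligible barcodes with a mitotic transcript (median 19691 counts). The low-score comparison was the 250 lowest scoring barcodes without one (median 26143 counts). The absorptive comparison was 100 barcodes without mitotic transcripts chosen by enterocyte genes, and it gives the share of barcodes with a stem transcript in cells that should lack it, at a median of 22715 counts. Levels are CPM, a gene's counts scaled by the summed counts of the barcodes. Shares of barcodes were taken after thinning each barcode to 3000 counts. At that depth, 28.5% of the mitotic comparison still held a count of Mki67, 35.7% of Top2a and 30.5% of Ube2c. How many members lack these counts through depth was not tested. Every barcode was selected on expression, so differences between these sets are descriptions without a test.

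The genes of the score stood far above the low-score comparison and below the mitotic comparison. Lgr5 (chr10:115450311-115587780) stood at 240 CPM in members, 275 CPM in the mitotic and 0.647 CPM in the low-score comparison. After thinning, 53.2% of members held an Lgr5 count, against 63.1% and 0.402% in those sets and 1.0% of absorptive barcodes. Olfm4 (chr14:79984081-80023139), a secreted glycoprotein of crypt base cells, stood at 3404, 5366 and 15.8 CPM in the same order. Its thinned share was 85.6% in members and 14% in absorptive barcodes. Smoc2 (chr17:14279506-14404790), a matricellular protein, was counted in 66.0% of thinned members, and Ascl2 (chr7:142966829-142969264) in 30.8%. Rgmb (chr17:15803188-15831039), a BMP co-receptor, was counted in 32.0%. Gkn3 (chr6:87383256-87388935), a gastrokine, was the sparsest member of the score, with 73 counts in 50 members. The positions are those of mm10.

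Crypt base genes that the score did not use lay near the mitotic comparison and mostly above the low-score comparison. Their list held 20 genes, summing to 2667 CPM in members, 2768 CPM in the mitotic and 341.5 CPM in the low-score comparison. Of these, 19 stood above the low-score comparison and 9 above the mitotic comparison. Slc12a2, a sodium, potassium and chloride transporter, stood at 551.5 CPM in members, 478 CPM in the mitotic and 20.2 CPM in the low-score comparison. The Wnt feedback gene Axin2 stood at 124, 142 and 5.17 CPM. From the Wnt list, the target transcription factor Sp5 stood at 50.9, 46.5 and 0.485 CPM. Fstl1 had no count in members. Hopx, described as a marker of reserve stem cells, was counted in 69.2% of thinned members and 61.8% of the mitotic comparison, with levels of 451 and 415 CPM. Of the 5 genes described for reserve or "+4" cells (Bmi1, Hopx, Lrig1, Tert and Mex3a), 2 stood above the mitotic comparison, so the list as a whole did not set members apart. MHC class II genes summed to 1.85 CPM, with H2-Ab1 and H2-Aa at 0. Immune and mesenchymal markers summed to 1.58 CPM, with Ptprc, Cd3e and Col1a1 at 0.

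Summed lists of signalling genes lay near the mitotic comparison as well, while some single genes did not. Wnt pathway and target genes, a list that includes Lgr5 and Ascl2 of the score, summed to 1221 CPM in members, 1280 CPM in the mitotic and 181 CPM in the low-score comparison, and 17 of 18 stood above the latter. Znrf3 and Rnf43, ligases that remove Wnt receptors from the membrane, stood at 24.6 and 42.5 CPM in members, 15.2 and 40.3 CPM in the mitotic and 2.26 and 4.20 CPM in the low-score comparison. Among 12 Notch genes the target Hes1 stood at 126, 136 and 39.8 CPM in that order. The ligand Dll1 was at 14.5, 5.58 and 1.78 CPM and the secretory regulator Atoh1 at 10.03, 2.99 and 1.29 CPM. Only 29 members held a count of Dll1 and 20 of Atoh1. Ligands of the EGF receptor were low in members, with Areg at 45.4 CPM and Ereg at 1.06 CPM, against 509 and 43.2 CPM in the low-score comparison. Etv4, an ETS factor induced by that pathway, stood at 26.7 CPM in members, 25.7 CPM in the mitotic and 1.94 CPM in the low-score comparison. BMP genes were less separated, at 474, 458 and 349 CPM, with the target Id1 at 62.3, 40.5 and 87.4 CPM.

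Among the largest ratios, Ifitm3, an interferon-induced membrane protein, stood at 736 CPM in members and 15.4 CPM in the low-score comparison, and Bex1 at 335 and 7.43 CPM. Lower in members were genes of mature epithelium. Fabp6, the ileal bile acid binding protein, stood at 14.0 and 1732 CPM, and the antimicrobial lectin Reg3b at 12.9 and 2269 CPM. The largest ratios above the mitotic comparison belonged to Chgb (516 and 4.59 CPM), Chga and Fcgbp, and Chgb was counted in 8% of thinned members.

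S phase transcripts were present in most members, although the rule allowed no count of Mki67, Top2a or Ube2c. The list of 21 S phase genes summed to 1024 CPM in members, 1982 CPM in the mitotic comparison and 155 CPM in the low-score comparison, 1.94-fold below the first and 6.61-fold above the second. All 21 genes lay below the mitotic and above the low-score level. After thinning, 204 of 250 members (81.6%, exact 95% binomial interval 76.2% to 86.2% for counting error only) held a count of at least 1 of the 21 genes, against 94.4% of the mitotic and 35.7% of the low-score comparison and 42% of absorptive barcodes. The order held in each of the 5 cultures. Members of control cultures stood at 912 and 972 CPM, and those of mutant cultures at 1276, 1225 and 844 CPM. The mitotic comparison ranged from 1466 to 2316 CPM and the low-score comparison from 119.5 to 225.8 CPM.

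Genes of that list differed in how far members fell short of the mitotic comparison. Among subunits of the replicative helicase, Mcm6 stood at 83.4 CPM in members, 124 CPM in the mitotic and 4.04 CPM in the low-score comparison, and Mcm4 at 62.0, 74.0 and 2.43 CPM. Pclaf, a PCNA-binding factor that peaks during replication, stood at 43.6, 322 and 9.21 CPM. Rrm2, the regulated subunit of ribonucleotide reductase, stood at 7.66, 49.2 and 2.26 CPM. Members were nearer to the mitotic comparison for these Mcm genes than for Pclaf and Rrm2. Replication-dependent histone transcripts were among the 15 largest differences below the mitotic comparison, with Hist1h2ap at 27.0 and 423 CPM.

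The list of 18 genes of G1 control summed to 1501 CPM in members, 1556 CPM in the mitotic and 1033 CPM in the low-score comparison. Of these genes, 5 stood above the mitotic and 11 above the low-score comparison. In members and the mitotic comparison, Cdk4 was at 424 and 447 CPM and Cdk6 at 185.6 and 185.7 CPM. Ccnd1 (cyclin D1) was at 207 and 216 CPM, while the low-score comparison held 84.5, 32.2 and 50.1 CPM of these genes. Other genes of the list differed, with E2f1 at 10.03 CPM in members and 19.34 CPM in the mitotic comparison. Cdkn2d stood at 1.584 and 9.572 CPM in the same order. Rb1 was higher in the low-score comparison, at 41.22 CPM against 13.73 CPM in members. Cdkn1a (p21), an inhibitor of cyclin-dependent kinases, stood at 60.9 CPM in members, 36.8 CPM in the mitotic and 549 CPM in the low-score comparison. It was below the low-score comparison in 5 of 5 cultures, at 25.9 to 132.5 CPM against 331.9 to 628.9 CPM. Of the mitotic list outside the rule, 20 genes summed to 122.5 CPM in members and 1247 CPM in the mitotic comparison, and all 20 lay below that comparison. Cdk1, the kinase that drives entry into mitosis, stood at 21.9 against 107.5 CPM.

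**Figure D1:**
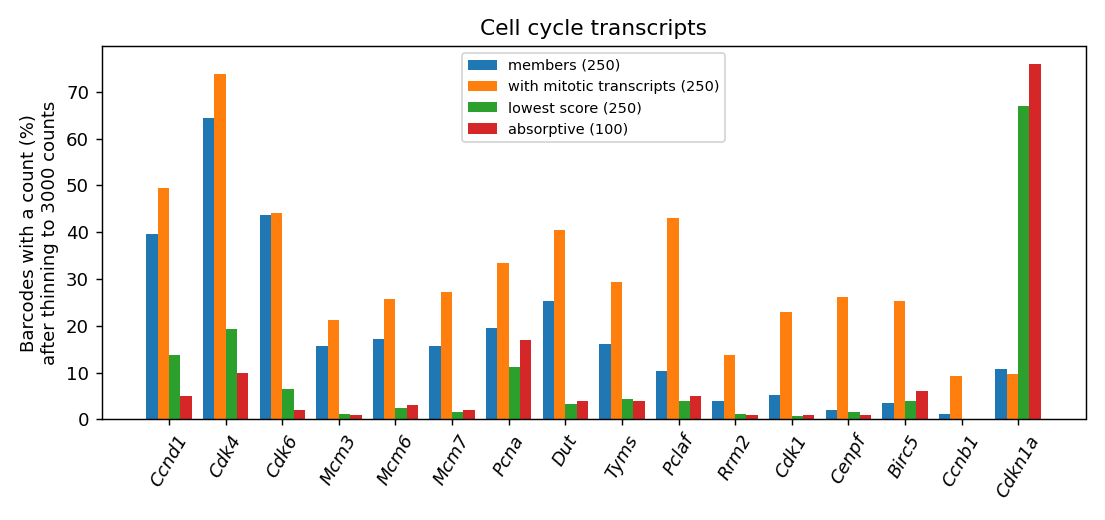
Share of barcodes (%) with a count of each cell cycle gene after thinning every barcode to 3000 counts, for members, the mitotic comparison, the low-score comparison and the absorptive comparison. Members sit near the mitotic comparison for Cdk4 (64.4% and 73.9%) and Cdk6 (43.6% and 44.2%), between the sets for the Mcm genes, and well below it for Pclaf (10.4% and 43.0%), while Cdkn1a is frequent in the low-score and absorptive sets.

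The members were not uniform along the score. Split into bins of 50 by rank, the score genes summed to 8643 CPM in ranks 1 to 50, 6675 CPM in ranks 51 to 100, 4187 CPM in ranks 101 to 150, 1661 CPM in ranks 151 to 200 and 622 CPM in ranks 201 to 250, as the ordering requires. Crypt base genes outside the score stood at 3990 CPM in the first and 1443 CPM in the last bin. Summed S phase genes stayed between 909 and 1111 CPM in all 5 bins. Paneth genes stood at 735 CPM in the first bin and at 3828 and 15670 CPM in the last pair, and enteroendocrine genes at 29.8 CPM and at 1002 and 3225 CPM. Transcripts of goblet cells stood at 464 CPM in the first and 4812 CPM in the last bin. The low end of the 250 included barcodes with high secretory transcripts, which go against a plain stem label.

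**Figure D2:**
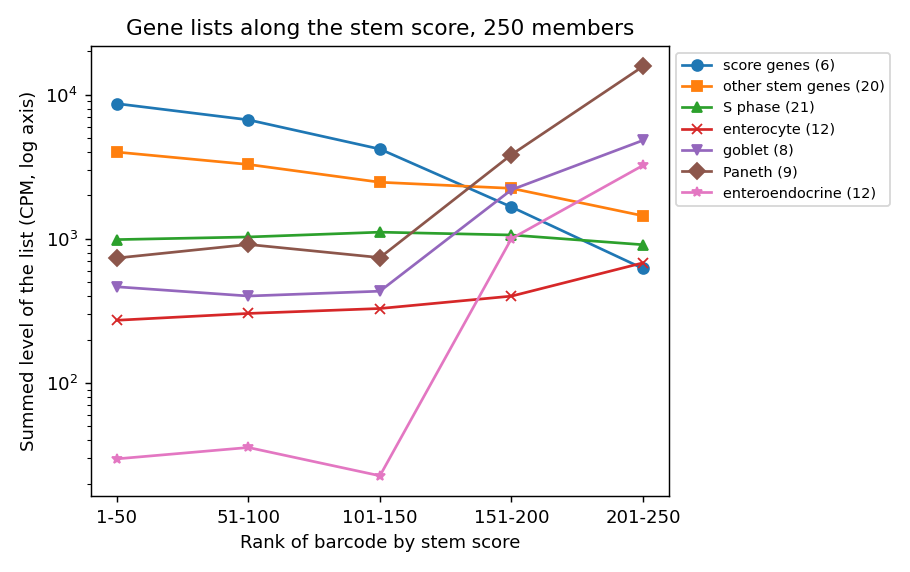
Summed level (CPM, log axis) of 7 gene lists in the members, split by rank of stem score into 5 bins of 50 barcodes. The score and other stem genes are lower toward the last bin, S phase genes lie between 909 and 1111 CPM throughout, and Paneth, goblet and enteroendocrine genes are higher in ranks 151 to 250.

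Clustering the members by expression gave 7 sub-clusters. These are descriptions, since the same genes formed them. Sub-cluster 1 (53 barcodes) was led by Picalm, Gvin1 and Cers6 and included Olfm4 in its leading 10, with Lgr5 at 382 CPM. Sub-cluster 2 (37) was led by Edn1 (the peptide endothelin), Dusp1 (a phosphatase of MAP kinases) and Col16a1. Its Olfm4 level was 5360 CPM, beside 5342 CPM in sub-cluster 1, and both lay mainly in the top 150 ranks (46 of 53 and 36 of 37 barcodes). Sub-cluster 4 (24) was led by Tuba1b and held Pclaf and Chaf1b, a chromatin assembly subunit. It had 10 S phase genes past the bounds of a log2 ratio of 0.5 and 25% of barcodes, summed to 1484 CPM, and 91.7% of its thinned barcodes held an S phase count. By the same bounds it had 3 mitotic genes outside the rule. Its stem transcripts differed among themselves. Lgr5 stood at 102.4 CPM and Olfm4 at 2008 CPM, while Ascl2, at 191.7 CPM, was the highest of the 7 sub-clusters. Stem genes outside the score stood at 1435 CPM, the lowest sum of the 7 sub-clusters. Sub-cluster 5 (53) was led by Apoa1 (an apolipoprotein of absorptive cells), Areg (a ligand of the EGF receptor), Sprr2a3 and Lgals3, with Lgr5 at 181.5 CPM. Apoa1 was counted in 10 of these 53 barcodes, and 1 barcode held 72 of its 149 counts over all members. Of the 12 enterocyte markers, 0 passed the bounds in this sub-cluster.

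The other sub-clusters stand apart by RNA quality or by secretory genes. Sub-cluster 3 (47 barcodes) had a median of 4760 counts and a median mitochondrial share of 19.4%, was led by Rpl9-ps6, Gm49804 and mitochondrially encoded genes, and is given no name. Its stem transcripts were high, with Lgr5 at 342 CPM, stem genes outside the score at 3507 CPM and 30 of 47 barcodes in the top 150 ranks. S phase genes summed to 1525 CPM there, with 8 past the bounds and a count in 87.2% of thinned barcodes, so high S phase levels were not particular to sub-cluster 4. Mitotic genes outside the rule summed to 254.7 CPM in sub-cluster 3, the highest of the 7, and to 197.3 CPM in sub-cluster 4. After thinning, 44.7% and 45.8% of their barcodes held a count of that list. Sub-cluster 6 (25) was a mixed secretory set led by enteroendocrine genes, with Lgr5 at 101.7 CPM. Chgb and Chga (granule proteins), Neurog3 and Neurod1 (endocrine transcription factors) and Cpe were 5 of its 10 leading genes. The Paneth defensin Defa34 was another. Enteroendocrine genes summed to 11300 CPM, Paneth genes to 3859 CPM and goblet genes to 2249 CPM. Of its 25 barcodes, 8 held a count of Neurog3 and 11 of Chgb. After thinning, 15 held an enteroendocrine count and all 25 a Paneth count. The list of 10 early secretory genes, each above the mitotic comparison over all members, summed to 3089 CPM here and to 450 to 915 CPM in sub-clusters 1 to 5. Neurog3 was counted in 13 of all 250 members, with 42 of its 125 counts in 1 barcode, and Atoh1 in 20. Sub-cluster 7 (11) was goblet/Paneth-like, led by Spink4, Defa24 and Lyz1, with 9 of 9 Paneth markers past the bounds. Together, sub-clusters 6 and 7 held 36 members, 3 of which lay in the top 150 ranks. Enteroendocrine genes summed to 824 CPM over all members and to 24.6 CPM without these 36. Paneth genes summed to 4193 CPM over all members, above the 819 CPM of the mitotic comparison, and to 711 CPM, below it, without these 36. Several hashtags were found on 18 members and none on 83. Scrublet, a doublet caller, marked 4 of 2725 filtered barcodes (0.147%) and so has not worked, and doublets among members were not removed.

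Secretory genes also varied most among the members. Variance over mean of thinned counts, which is 1 for counting noise alone, had a median of 1.08 over 3937 genes. The 6 highest were the Paneth defensins Defa24 at 184, Defa17 at 82.0, Defa20 at 79.8 and Defa32 at 75.1, with Chgb at 158 and Chga at 70.2. Of the score genes, Olfm4 stood at 10.6, with up to 58 thinned counts in 1 barcode, and Lgr5 at 1.26. Paneth transcripts were found in 66.8% of thinned members, 57.8% of the mitotic comparison and 45% of absorptive barcodes.

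Genotype was not used to choose the members, so the cultures can be compared. Hashtags placed 149 members in 1 culture, with 43 and 40 control and 15, 30 and 21 mutant members. Members made up 13.9% and 12.3% of eligible barcodes in control cultures, against 6.02%, 11.8% and 11.7% in mutant cultures. The means were 13.1% ± 1.14 (SD, n = 2) and 9.84% ± 3.30 (SD, n = 3). Mutant cultures 2 and 3 lay just under control culture 2, and mutant culture 1 lay apart below all others. The difference of -3.28 percentage points did not pass (two-sided exact permutation test, p = 0.4; 5 cultures allow no p under 0.1). It was -1.375 without mutant culture 1 (exact permutation p = 0.333, where no p under 0.1667 was possible). Of eligible barcodes without mitotic transcripts, members made up 45.3% and 51.3% in control and 31.25%, 42.9% and 40.4% in mutant cultures. The means were 48.3% ± 4.26 (SD, n = 2) and 38.2% ± 6.11 (SD, n = 3) (exact permutation p = 0.2, where no p under 0.1 was possible).

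**Figure D3:**
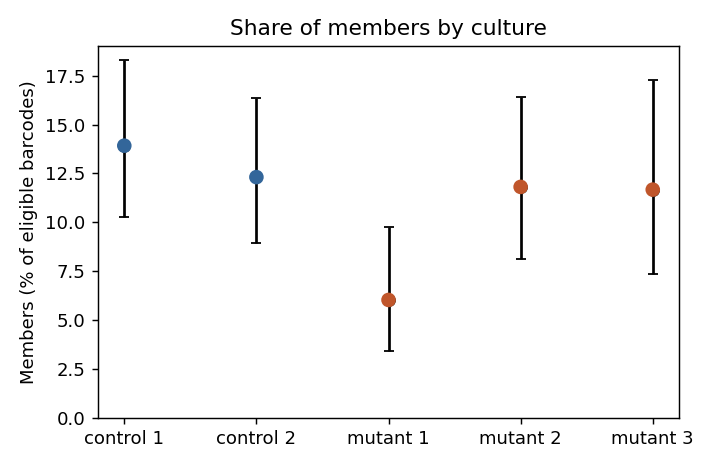
Members as a share (%) of eligible barcodes in each of the 5 cultures, with exact 95% binomial intervals, which cover counting error only. The control cultures are at 13.9% and 12.3%, mutant cultures 2 and 3 at 11.8% and 11.7%, and mutant culture 1 at 6.02%.

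Etv1 was too sparse to compare, with 3 and 4 counts in control and 0, 1 and 0 counts in mutant members. With the mutation not stated, transcripts of a mutant allele can still be counted, so these counts check nothing about it.

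Of 5774 genes tested, 4 changed with genotype in the members (0.0693%; edgeR quasi-likelihood test, Benjamini-Hochberg adjusted p under 0.05), 3 higher (0.052%) and 1 lower (0.0173%) in mutant cultures. Unadjusted p was under 0.05 for 140 genes above and 121 below zero, 4.52% of those tested. Igfbp4 and Col16a1 were the calls that remained when sub-clusters 6 and 7 were left out, a choice made after seeing the data.

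Igfbp4 (chr11:99041244-99054392), a secreted protein that binds insulin-like growth factors, stood at 8.62 and 3.39 CPM in control and 91.5, 50.8 and 43.6 CPM in mutant members, 6.01 ± 3.70 (SD, n = 2) and 62.0 ± 25.8 (SD, n = 3). The groups did not overlap, as in 18.6% of genes tested (11% with mutant cultures higher and 7.64% with them lower). A count was found in 4 of 43 and 1 of 40 control and in 9 of 15, 12 of 30 and 5 of 21 mutant members. Single members held 12 of the 24 counts of mutant culture 1, 5 of 25 in mutant culture 2 and 7 of 15 in mutant culture 3. The log2 fold change was 3.17 (SE 0.52, edgeR adjusted p = 0.036). The gene was known from the whole pool to be higher in mutant cultures, so the members add no independent support. Control and mutant cultures stood at 9.64 and 11.8 against 81.9, 66.1 and 47.7 CPM in the mitotic comparison, and at 3.52 and 5.97 against 47.8, 21.7 and 30.6 CPM in all other eligible barcodes, again without overlap. The genotype difference did not differ detectably between members and other barcodes (log2 difference 0.48, SE 0.61, adjusted p = 1).

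Col16a1 (chr4:130047840-130099283), a fibril-associated collagen chain and a leading gene of sub-cluster 2, stood at 33.0 and 54.2 CPM in control and 3.81, 6.09 and 2.91 CPM in mutant members, 43.6 ± 15 (SD, n = 2) and 4.27 ± 1.64 (SD, n = 3). Counts came from 9 of 43 and 10 of 40 control members and from 1 of 15, 2 of 30 and 1 of 21 mutant members. Sub-cluster 2, where Col16a1 stood at 54.6 CPM against 20.9 CPM in other members, held 9 and 6 control members and 0, 4 and 3 mutant members, and its part in the difference was not tested. The groups were apart, and the log2 fold change was -3.21 (SE 0.53, edgeR adjusted p = 0.036). In the mitotic comparison the same gene stood at 2.76 and 27.1 CPM in control and 6.55, 7.19 and 8.42 CPM in mutant cultures, which overlap. The difference between members and other barcodes did not pass (log2 difference -1.85, SE 0.68, adjusted p = 0.92). Both calls were fragile: the adjusted p over the alternatives went up to 0.532 for Igfbp4 and 0.9998 for Col16a1, and neither passed without any 1 of the 5 cultures, while both kept their direction throughout. The log2 fold change over those alternatives ran from 2.43 to 4.01 for Igfbp4 and from -7.25 (without sub-clusters 6 and 7) to -1.42 (MULTIseqDemux) for Col16a1. With so few mutant counts, the fitted size for Col16a1 is no bound.

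Tff3 (chr17:31125306-31129646), a trefoil peptide of goblet mucus, stood at 185 and 295 CPM in control and 549, 577 and 599 CPM in mutant members (log2 fold change 1.23, SE 0.20, edgeR adjusted p = 0.036). Without sub-clusters 6 and 7 its log2 fold change was 0.37 (adjusted p = 0.983), and with 400 barcodes it was -0.12. Ccl6 (chr11:83587882-83593087), a chemokine, was counted 2 and 0 times in control and 14, 84 and 11 times in mutant members, and single barcodes held 13, 83 and 10 of the latter. The gene was called (edgeR adjusted p = 0.036), and its fitted size is no bound with so few control counts. Without control culture 2, edgeR called 0 genes, with 99 genes above and 84 below zero at an unadjusted p under 0.05.

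**Figure D4:**
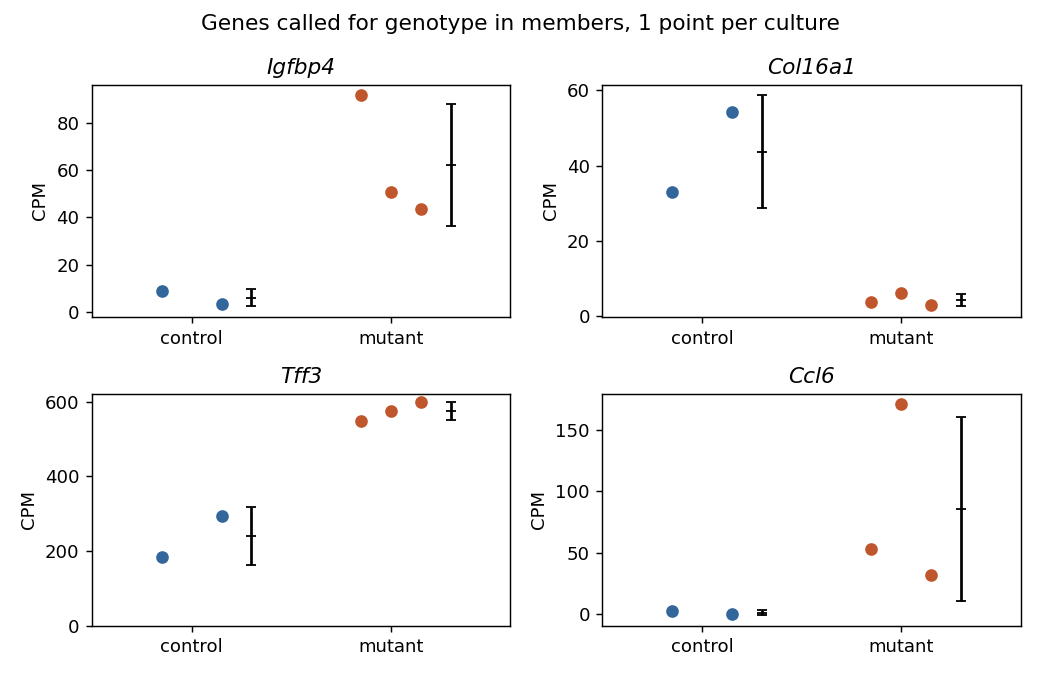
Level (CPM) of the 4 genes called for genotype in members, 1 point per culture, with bars for mean and SD (n = 2 control, n = 3 mutant). Igfbp4, Tff3 and Ccl6 are higher in the mutant and Col16a1 in the control cultures, and no group overlaps the other.

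The promoters of Igfbp4 and Col16a1 are shown because Etv1 is an ETS factor and these are the calls that did not depend on secretory members. The 250 bases before the start are from RefSeq (GRCm38.p6), on the strand of the gene, with capitals at GGAA or TTCC, the core letters of ETS sites on either strand. These letters were chosen after the genes were known, and motifs were searched on both strands.
Igfbp4, chr11:99040994-99041243 (plus strand): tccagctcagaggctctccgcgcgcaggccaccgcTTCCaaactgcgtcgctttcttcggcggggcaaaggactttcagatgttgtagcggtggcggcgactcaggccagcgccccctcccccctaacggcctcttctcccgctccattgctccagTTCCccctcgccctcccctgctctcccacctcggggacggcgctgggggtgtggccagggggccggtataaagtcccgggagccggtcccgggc
Col16a1, chr4:130047590-130047839 (plus strand): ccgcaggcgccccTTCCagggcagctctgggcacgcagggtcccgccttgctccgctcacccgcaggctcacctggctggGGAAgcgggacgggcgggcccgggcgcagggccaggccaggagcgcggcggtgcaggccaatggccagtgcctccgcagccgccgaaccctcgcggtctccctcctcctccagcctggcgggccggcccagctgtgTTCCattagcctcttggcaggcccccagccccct

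These core letters occurred 2 times in the Igfbp4 and 3 times in the Col16a1 window. They are common, being in 93.4% of 32851 promoter windows of that length. The longer letters CCGGAA or TTCCGG, which contain the core, were in 12% of all windows and in neither of these. Promoters of Olfm4, Ascl2, Gkn3 and Rgmb were matched for the score genes (6 windows). CTTTGA or TCAAAG, the core bound by TCF/LEF factors of the Wnt pathway, was in 13.8% of all windows and in 0 of these 6. A match or its lack is a description of letters only.

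The score genes chose the members, so their levels by genotype within members are a description with no test. Lgr5 stood at 244.3 and 278 CPM in control and 213.5, 173.4 and 243.8 CPM in mutant members, with control culture 1 and mutant culture 3 apart by less than rounding a count can move them. Ascl2 stood at 181 and 153 CPM in control and 137, 130 and 125 CPM in mutant members. These do not overlap, as in 7.64% of genes tested with mutant cultures lower. Olfm4 stood at 3473 and 2460 CPM in control and 2906, 5145 and 2704 CPM in mutant members, with mutant culture 2 above the others. Smoc2 was lowest in mutant culture 1, at 187 CPM, against 369 to 432 CPM in the other 4 cultures. Values of Rgmb ran from 106 to 149 CPM and of Gkn3 from 8.48 to 29.1 CPM.

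**Figure D5:**
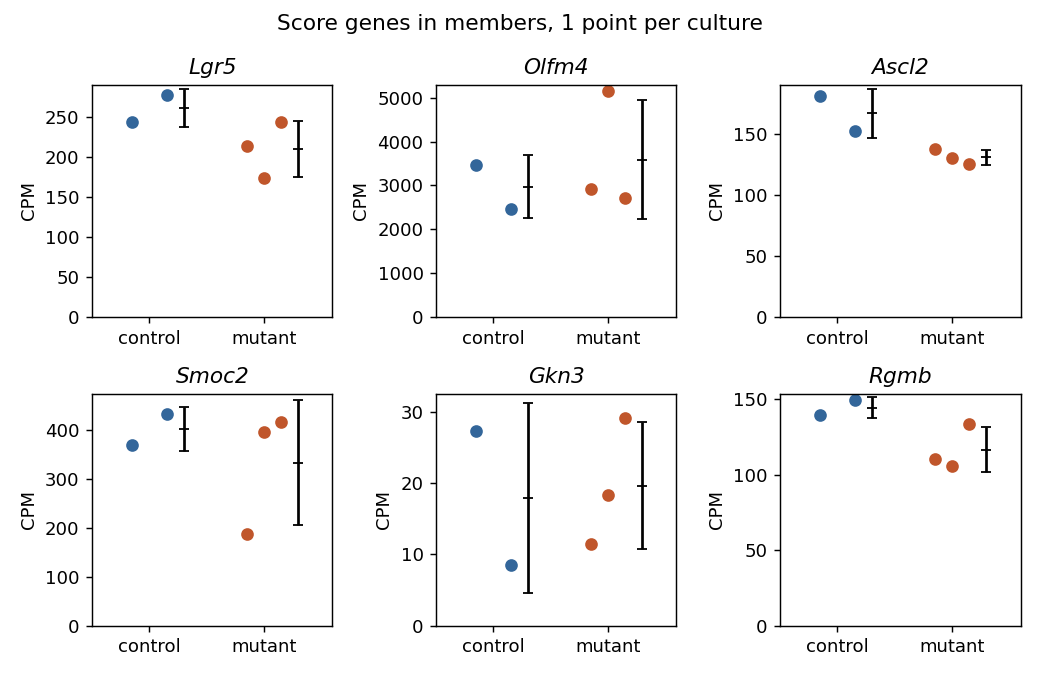
Level (CPM) of the 6 score genes in members, 1 point per culture, with bars for mean and SD (n = 2 control, n = 3 mutant). Olfm4, Smoc2 and Gkn3 overlap between the groups. Ascl2 and Rgmb do not, as in 7.64% of genes tested with mutant cultures lower. The nearest Lgr5 values of the groups (244.3 and 243.8 CPM) nearly coincide. The score genes chose the members, so no test is given.

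Among lists, 16 of the 20 crypt base genes were tested: Igfbp4 was called, and 8 lay above and 8 below zero (median log2 fold change -0.05, against 0.003 over all genes, of which 49.5% lay below zero). Of 13 tested Wnt genes, which include Lgr5 and Ascl2 used by the score, 10 lay below zero (median -0.165) and 0 were called, with Sp5 at -0.60 (SE 0.28, adjusted p = 0.996). Of 17 tested S phase genes, 16 lay above zero (median 0.209), 0 were called, and 1 did not overlap between groups. Summed per culture, S phase genes gave control members 942 ± 42.4 CPM (SD, n = 2) and mutant members 1115 ± 236 CPM (SD, n = 3), and the groups overlap. All 4 tested goblet genes lay above zero (median 1.14) and Tff3 was called. The goblet sum was 855 and 842 CPM in control and 1964, 2077 and 1637 CPM in mutant members, 849 ± 8.77 (SD, n = 2) and 1893 ± 228.5 (SD, n = 3), without overlap. Single barcodes held 276 of 595 and 151 of 497 counts in control and 247 of 515, 429 of 1023 and 290 of 563 in mutant cultures. Of 8 tested Paneth genes, 7 lay above zero (median 1.41) and 0 were called. The Paneth sum was 5860 and 1076 CPM in control and 13670, 4552 and 2553 CPM in mutant members, and 1 barcode held 3435 of the 4079 counts of control culture 1. Selenop, a selenium carrier, was called with the 150 highest barcodes and stood at 155 and 198 CPM in control and 41.95, 79.2 and 128 CPM in all members (log2 fold change -1.10, adjusted p = 0.641).

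The genotype difference was also compared between members and all other eligible barcodes, with culture as a block. Of 10201 genes, 18 differed (0.176%), all with a higher mutant-minus-control value in members. Among them were 7 defensins, the goblet and Paneth genes Itln1, Spink4, Tff3, Ang4 and Mmp7, and the hormones Sct and Pyy. Defensin genes are near-identical copies whose reads the counting could split, so single members are uncertain. Some terms rest on few counts. Defa43 had 123 counts in 1 member of mutant culture 1, and Pyy stood at 1 to 5 counts per culture in members while the other barcodes held 938 and 942 counts in control and 9, 6 and 10 counts in mutant cultures.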

How the data were processed

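Members and gene lists were chosen with earlier results of these data known. The authors deposited whole hashtag counts for 5 hashtags, with no normalization seen in the values. The RNA table deposited by the authors holds estimated counts, that is expected counts that need not be whole, for 22253 genes over the same 3409 barcodes, and 95.6% of its values above 0 are whole. Per the submitters' processing notes, mm10 and alevin, Cell Ranger (6.1.0), Seurat (4.3.0) and Salmon (1.4.0) were used, with no role stated.

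Barcodes were assigned with HTODemux (Seurat 5.3.0, quantile 0.99). MULTIseqDemux, an alternative, was run with automatic thresholds because its default assigned almost none, a choice made after seeing the data, and a fixed rule asked for 70% of at least 10 hashtag counts. Estimated counts were summed per culture, rounded, and tested with edgeR 4.0.16 (TMM, filterByExpr, quasi-likelihood test, Benjamini-Hochberg), which was tested on simulated data first. DESeq2 1.42.0 was an alternative. Shares were compared by exact permutation over 10 splits. Sub-clusters came from scanpy 1.11.5 (2000 genes, 20 principal components, 15 neighbours, Leiden resolution 0.8). Summed member counts per culture ranged from 262249 to 695998, which limits sparse genes, and intervals cover counting error only. Named genes were the score and rule genes, the called genes, the highest members of each list and the largest ratios, and any further gene was picked with its values in view.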

Additional observations from a re-analysis of the deposited data

Results flagged for a closer look

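These 8 genes had the smallest p among those whose genotype difference differed between members and other eligible barcodes (edgeR genotype by class term, counts or levels in control cultures before mutant cultures). Defa43 (adjusted p = 7.37e-07) had 1 and 0 against 123, 24 and 3 counts in members, and 1714 and 52 against 12, 26 and 6 in other barcodes. Pyy (adjusted p = 3.00e-05) had 1 and 2 against 2, 5 and 3 counts in members, where both groups lie at or near the floor of 3 counts. Ccl6 (adjusted p = 0.000232) had 150 and 88 against 107, 67 and 21 counts in other barcodes. Mmp7, a Paneth protease (adjusted p = 0.000232), stood at 37.4 and 35.6 against 145, 20.3 and 140 CPM in members, and at 44.1 and 82.1 against 35.0, 9.50 and 21.2 CPM in other barcodes. Ang4, an antimicrobial ribonuclease (adjusted p = 0.00103), stood at 79.0 and 57.6 against 286, 231.5 and 90.2 CPM, and in other barcodes at 202 and 149 against 75.2, 32.8 and 74.8 CPM. Defa24 (adjusted p = 0.00152) stood at 3401 and 244 against 5751, 2347 and 933.5 CPM, and in other barcodes at 2827 and 711 against 816, 914 and 169.5 CPM. Spink4 (adjusted p = 0.00152) stood at 366 and 139 against 1106, 867 and 529 CPM, and in other barcodes at 835 and 854 against 435, 382 and 578 CPM. Over all members, 1 barcode held 2246 of 7409 Defa24 counts and 1 held 643 of 2786 Spink4 counts. Tpsg1 (adjusted p = 0.00359) had 0 and 0 against 5, 5 and 10 counts in members, and 79 and 162 against 34, 43 and 51 in other barcodes. Without sub-clusters 6 and 7, 8 of the 18 genes were still called. Of those named here, Defa43, Pyy, Ang4 and Spink4 were, and Ccl6 (adjusted p = 0.996), Mmp7 (0.996), Defa24 (0.1625) and Tpsg1 (0.886) were not. Other alternatives split the 8 genes differently. DESeq2 called Defa43, Pyy, Ccl6, Mmp7 and Tpsg1, but not Ang4, Defa24 or Spink4 (DESeq2 adjusted p = 0.9585 for each). With MULTIseqDemux hashtags, edgeR called only Pyy and Spink4 of the 8, and the class term was 2.49 for Defa43 and 0.59 for Ang4.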

How the results depend on the processing

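The 4 genotype calls became 1 with 400 barcodes (Pyy), 0 with MULTIseqDemux hashtags, 35 without a filter on low counts, 1 in DESeq2 (Tff3), and, in alternatives chosen after seeing the data, 2 without sub-clusters 6 and 7 and 0 without the high mitochondrial sub-cluster 3. At an unadjusted p under 0.05, edgeR still had 142 genes above and 115 below zero with MULTIseqDemux, and 125 and 99 without sub-cluster 3. Leaving out 1 culture gave 0 to 3 calls, with 0 without control culture 2. MULTIseqDemux placed 200 eligible barcodes in control culture 2 where HTODemux placed 325. The 18 differing genes became 3 with 400 barcodes, 29 with a score taken after thinning, 6 with MULTIseqDemux, 52 without the filter, 6 in DESeq2, and 4 to 48 leaving out 1 culture (4 without control culture 2, 48 without mutant culture 3). Reversed values were a log2 fold change of -0.12 for Tff3 and -0.12 for Gkn3 with 400 barcodes. Gkn3 also stood at -0.23 with the thinned score, -0.29 with MULTIseqDemux and -0.51 to 1.18 leaving out 1 culture, and Olfm4 at -0.11 to 0.53. The class term was -6.16 for Pyy with 400 barcodes and -0.23 for Mmp7 without sub-clusters 6 and 7. The cause of these changes was not tested. The difference in share of eligible barcodes was -4.268 to -0.06117 points and passed nowhere, the last under the fixed hashtag rule, which left 3, 11 and 7 eligible barcodes in 3 cultures. As a share of barcodes without mitotic transcripts it was -10.11 points. With 400 barcodes, S phase genes summed to 762 CPM, enteroendocrine genes to 1974 CPM and stem genes outside the score to 1908 CPM, and 71.5% of thinned barcodes held an S phase count. With 150 barcodes the enteroendocrine sum was 28.96 CPM, the Paneth sum 793 CPM and the stem sum 3185 CPM. Without sub-clusters 6 and 7 the enteroendocrine sum was 24.62 CPM and the Paneth sum 710.9 CPM, and without thinning 97.6% of members held an S phase count. The fixed hashtag rule left no member in 3 cultures, so gene tests could not be fitted. No paired analysis was possible because the culture numbers follow the order of the hashtags and only name the cultures, and the labels tie no control culture to a mutant culture.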
